A study of Mus musculus with 12 samples.

Results

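*Hdc*, *Hrh1*, *Hrh2* and *Hnmt* are 4 genes of the histamine system, taken by name from the 52636 genes counted in each of the count tables. *Hdc* encodes histidine decarboxylase, the enzyme that makes histamine, *Hnmt* encodes histamine N-methyltransferase, which inactivates it inside cells, and *Hrh1* and *Hrh2* encode histamine receptors. The set was chosen by measured values: it was selected on the change of *Hdc* between calcitonin gene-related peptide (CGRP) and saline in neutrophils, and the other 3 genes were added for their place in the same pathway. The change of these 4 genes in neutrophils is therefore given below as a description, with no test.

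CGRP is a neuropeptide released by pain-sensing neurons, and the study asked how it acts on myeloid cells, which are the white blood cells of the innate immune system. Neutrophils and monocytes were isolated from the bone marrow of C57BL/6 J mice aged 8 to 12 weeks. Neutrophils were enriched by negative selection and exposed for 4 h to CGRP at 1 nM or to saline (PBS). Monocytes were first cultured for 3 days with macrophage colony-stimulating factor (M-CSF) at 10 ng/ml and then given the same 4 h of CGRP at 1 nM or saline, and these cells are called macrophages here. There were 3 libraries in each of the 4 groups, 12 in all, and nothing in the sources used here says whether replicates came from separate mice or cultures, so the p-values measure only the spread between these libraries, which may be technical. Library totals ran from 2002559 counts (macrophages with CGRP, replicate 3) to 3631989 counts (neutrophils with saline, replicate 2). Levels are given as raw counts, or as CPM (counts scaled to a library of 1e+06 counts) after scaling by the trimmed mean of M values (TMM) over all 12 libraries. On that scale 3 counts corresponded to between 0.866 CPM (macrophages with saline, replicate 1) and 1.46 CPM (macrophages with CGRP, replicate 3).

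Histamine is made from the amino acid histidine in a single decarboxylation step that needs pyridoxal phosphate, the active form of vitamin B6. Mast cells and basophils store it in granules, loaded by the vesicular transporter encoded by *Slc18a2*, and release it within minutes, whereas neutrophils and macrophages can make it after raising *Hdc* transcription. It acts through 4 G protein-coupled receptors, and the H2 receptor encoded by *Hrh2* raises cyclic AMP and dampens several responses of leukocytes. Removal goes through methylation by *Hnmt* inside cells or oxidation by the diamine oxidase encoded by *Aoc1* outside them.

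On the GRCm38 assembly, *Hdc* (ENSMUSG00000027360) lies on the minus strand at chr2:126593667-126619299, and its coding transcript has 12 exons and 2392 bases, with the last exon, from which 3′-primed reads come, at chr2:126593667-126594686. *Hnmt* (ENSMUSG00000026986) is on the minus strand of the same chromosome at chr2:24002910-24049394. *Hrh1* (ENSMUSG00000053004) lies on the plus strand at chr6:114397936-114483296 and *Hrh2* (ENSMUSG00000034987) on the plus strand at chr13:54192129-54236180. No annotated gene overlapped *Hdc*, *Hnmt* or *Hrh1*. *Hrh2* was overlapped by the antisense gene *Gm16578*, which had at most 2 counts in any library. None of the 31-base words in the last 500 bases of the longest coding transcript of these 4 genes occurred in a transcript of another gene. Other transcript ends were not checked. For *Hrh2* these include a coding transcript whose last exon, chr13:54221220-54222432, lies inside *Gm16578*.

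*Hdc* and *Hrh2* were the members that moved furthest in neutrophils, in opposite directions, so the 250 bases before their start sites are shown, 5′ to 3′ on the gene's own strand, from RefSeq on GRCm38.p6. The *Hdc* stretch is chr2:126618679-126618928 on the minus strand and the *Hrh2* stretch, before 1 of the 2 start sites listed for that gene, is chr13:54191883-54192132 on the plus strand. Capitals mark every match to the motifs searched on both strands.
Hdc: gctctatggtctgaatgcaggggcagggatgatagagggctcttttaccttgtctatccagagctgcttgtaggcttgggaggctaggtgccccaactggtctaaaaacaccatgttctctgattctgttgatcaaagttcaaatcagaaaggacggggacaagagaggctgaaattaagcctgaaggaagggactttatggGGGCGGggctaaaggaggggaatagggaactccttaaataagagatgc
Hrh2: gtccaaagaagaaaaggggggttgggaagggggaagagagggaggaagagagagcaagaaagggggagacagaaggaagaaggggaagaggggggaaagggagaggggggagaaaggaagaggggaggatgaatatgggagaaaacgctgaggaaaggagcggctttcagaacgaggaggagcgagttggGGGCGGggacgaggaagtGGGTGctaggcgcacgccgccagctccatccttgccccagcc

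Both stretches held a GC box (GGGCGG) on the gene's own strand, beginning 48 bases before the start site of *Hdc* and 60 bases before that of *Hrh2*. This motif was in 35.7% of 32851 promoter entries of 300 bases, which reach 50 bases past the start site. *Hrh2* also held a CACCC box on the opposite strand, 42 bases before its start, a motif found in 57.5% of entries. Neither window held the cyclic AMP response element TGACGTCA (1.79% of entries) or its shorter form TGACG (20.8%, and also contained in the longer motif). The letters TGACTCA (5.2%), AGATAA (11.2%), TGATAA (9.05%), CCAAT (37.4%), TATAAA (13.6%) and CAGCTG (16.3%) were likewise not in these windows, which says only that those letters are not there.

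In neutrophils, *Hdc* was well detected with saline and higher with CGRP. The saline libraries held 1184, 1227 and 909 *Hdc* counts (372, 370 and 330 CPM) and the CGRP libraries 3119, 3267 and 1948 counts (1002, 961 and 850 CPM). All 3 CGRP libraries lay above all 3 saline libraries, and the lowest of them was more than 2-fold above the highest saline library. The mean went from 357 ± 23.6 CPM (SD, n = 3) to 938 ± 78.3 CPM (SD, n = 3), a log2 fold change of 1.40 with a standard error of 0.08, or 2.65-fold. By log2 fold change *Hdc* stood 25th of the 9819 genes tested in neutrophils. In that comparison 1.51% of the genes tested were called higher and 1.02% lower at an adjusted p under 0.05 (limma-voom, Benjamini-Hochberg), and nothing is read from these shares for the 4 genes because the comparison chose them.

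*Hrh2* was lower with CGRP in the same libraries. It had 79, 81 and 57 counts (24.8, 24.4 and 20.7 CPM) with saline and 30, 44 and 26 counts (9.63, 12.9 and 11.3 CPM) with CGRP. The groups did not overlap: the highest CGRP library was below the lowest saline library. The mean went from 23.3 ± 2.27 CPM to 11.3 ± 1.66 CPM (SD, n = 3 each), a log2 fold change of -1.03 with a standard error of 0.21. *Hrh2* was 38th from the lowest of the 9819 log2 fold changes. Among all genes tested in neutrophils, groups did not overlap in the higher direction for 8.18% and in the lower direction for 9.69%.

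*Hnmt*, the enzyme on the breakdown side, had lower values with CGRP but the groups touched. It had 100, 117 and 100 counts (31.4, 35.3 and 36.3 CPM) with saline and 75, 68 and 76 counts (24.1, 20.0 and 33.2 CPM) with CGRP. The third CGRP library lay inside the saline range, and the other two lay below it. The log2 fold change was -0.47 with a standard error of 0.17. *Hrh1* was at the edge of detection, with 1, 1 and 0 counts with saline and 0 counts in all 3 CGRP libraries, and did not enter the fit, so 3 of the 4 genes did.

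**Figure D1:**
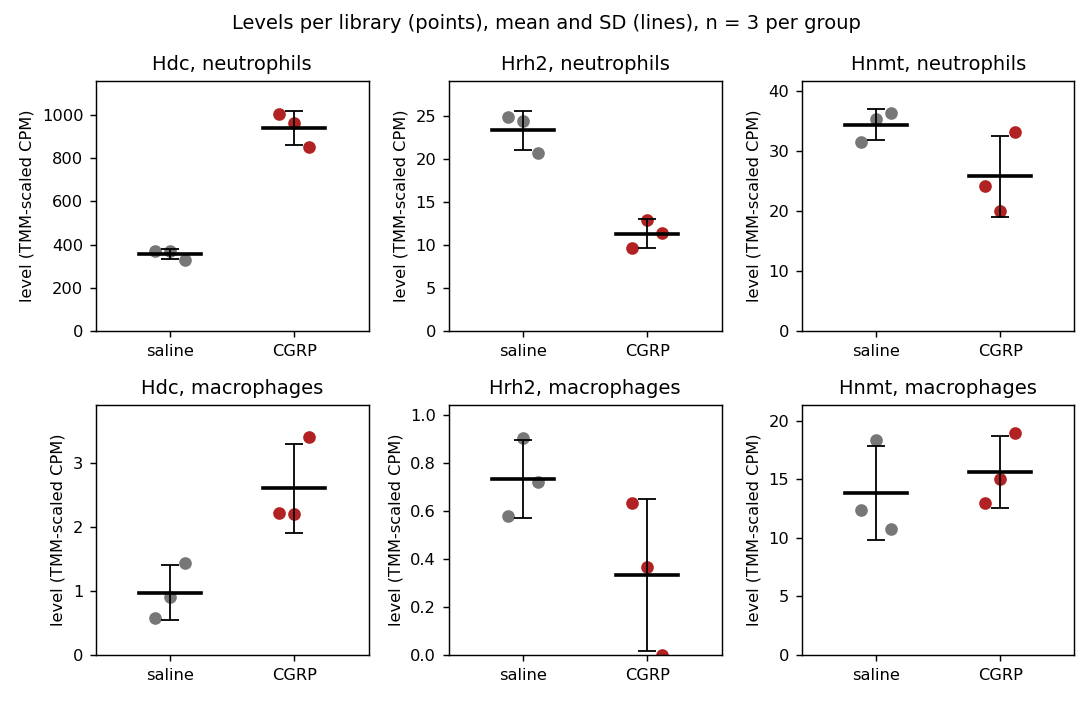
Level of *Hdc*, *Hrh2* and *Hnmt* (TMM-scaled CPM, linear axes from 0, a different scale in each panel) in each neutrophil library (top) and macrophage library (bottom). Points are libraries, horizontal lines the mean and bars the SD of 3. In neutrophils the *Hdc* points with CGRP (850 to 1002 CPM) sat above all saline points (330 to 372 CPM) and the *Hrh2* points sat below theirs, whereas the macrophage panels for *Hdc* and *Hrh2* stayed under 4 CPM.

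Macrophages held almost no *Hdc*. The saline libraries had 2, 3 and 4 counts (0.577, 0.903 and 1.44 CPM) and the CGRP libraries 7, 6 and 7 counts (2.21, 2.20 and 3.41 CPM). Every CGRP library was above every saline library, which in this comparison was so for 11.0% of all genes tested (13.2% in the lower direction). The pooled ratio, 20 counts against 9, was 2.68 with a 95% counting interval from 1.16 to 6.67, which covers counting error only. *Hdc* was too low for the main fit here. The exact two-sided permutation test over the 6 libraries gave p = 0.1, the smallest that 3 against 3 libraries allow, and a fit without the filter on low counts gave a log2 fold change of 1.36 with a standard error of 0.62 and an adjusted p of 0.285. A change of *Hdc* in macrophages was therefore not shown at this depth, and whether the CGRP effect differed between the cell types was not tested.

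The receptors were also near the floor in macrophages. *Hrh2* had 2, 3 and 2 counts with saline and 2, 1 and 0 counts with CGRP, a pooled ratio of 0.516 with a counting interval from 0.0861 to 2.26 (exact permutation p = 0.2, two-sided). *Hrh1* had 0, 2 and 1 counts with saline and 0 in all 3 CGRP libraries (exact permutation p = 0.4). *Hrh3*, which encodes a receptor known mainly from neurons, was at 0 in all 12 libraries. *Hrh4*, the receptor best known from eosinophils and mast cells, had 1 count in 1 saline neutrophil library and none elsewhere.

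*Hnmt* was the member that macrophages carried at a level fit for testing, so 1 of the 4 genes was tested there. It had 43, 61 and 30 counts (12.4, 18.4 and 10.8 CPM) with saline and 41, 41 and 39 counts (12.9, 15.0 and 19.0 CPM) with CGRP. The groups overlapped. The log2 fold change was 0.18 with a standard error of 0.26, a 95% interval from -0.38 to 0.73 and an adjusted p of 0.774 (limma-voom), so no change was detected and one of up to 0.73 on the log2 scale was not excluded.

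Without CGRP, *Hdc* had the largest difference between the cell types among the 4 members. Its level was 357 ± 23.6 CPM in saline-treated neutrophils and 0.972 ± 0.434 CPM in saline-treated macrophages (SD, n = 3 each), with no overlap. The pooled ratio was 381, from 3320 counts against 9, with a counting interval from 201 to 835, and the fitted log2 difference was 8.42 with a standard error of 0.44. *Hrh2* was likewise higher in neutrophils, with 217 counts against 7 and a ratio of 32.1 (counting interval 15.3 to 80.7). Both intervals cover counting error only, not the spread between libraries, and are not read as tests. No p is given for *Hdc* and *Hrh2* here, because they entered the fit through the neutrophil libraries alone and their passing the filter already carried the difference. *Hnmt*, which passed in both cell types, was higher by 1.33 on the log2 scale (standard error 0.21, limma-voom adjusted p = 1.56e-05), with 34.3 ± 2.58 CPM in neutrophils and 13.8 ± 3.99 CPM in macrophages.

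These differences stand against a comparison in which most of the transcriptome differed: 35.5% of 10186 genes tested were called higher in neutrophils and 33.0% lower, and groups did not overlap for 36.3% and 34.7%. The saline neutrophil libraries also serve as the controls of the comparison that chose the set. Cell type, medium and days in culture changed together in this design and cannot be told apart, and in bulk RNA fewer cells of a type and less RNA per cell cannot be told apart either.

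**Figure D2:**
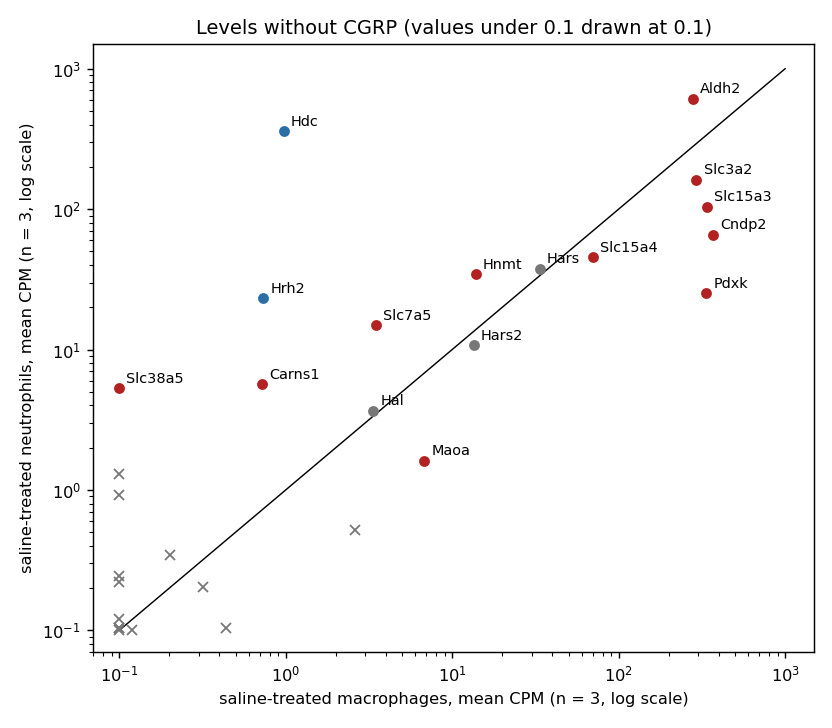
Mean level of the histamine and histidine genes shown, each with at least 1 count in a saline library, in saline-treated macrophages (horizontal axis) and saline-treated neutrophils (vertical axis), both in TMM-scaled CPM on log scales, n = 3 libraries each; the line marks equal levels. Red circles had an adjusted p under 0.05, grey circles did not, blue circles (*Hdc* and *Hrh2*) have no test, and crosses were too low to test. For genes that entered the fit through 1 cell type alone (*Slc7a5*, *Slc38a5*, *Carns1* and *Maoa*), red carries the filter's own direction. *Hdc* stood furthest above the line at 357 against 0.972 CPM, and *Pdxk* furthest below it among the circles.

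Of a list of 34 genes for histamine synthesis, storage, breakdown, transport and reception and for the handling of histidine and vitamin B6, 33 were in the tables, 29 of them beside the 4 members. In neutrophils 13 of the 29 were tested; 1 was called higher, 0 lower and 12 neither, beside 1.51% higher and 1.02% lower among all genes, and the 13 had a median log2 fold change of -0.09 beside 0.000801 for all genes. In macrophages 11 of the 29 were tested, with 1 called higher and 1 lower, beside 3.46% and 3.97% of all genes. The groups of 5 of the 13 genes in neutrophils did not overlap in the higher direction and those of 0 in the lower direction, beside 8.18% and 9.69% of all genes. In macrophages the groups of 4 and 2 of the 11 did not overlap, beside 11.0% and 13.2%.

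The gene called higher in both cell types was *Slc15a3* (chr19:10839727-10859362, plus strand), which encodes a proton-coupled transporter that moves histidine and short peptides out of endosomes and lysosomes. In neutrophils it had 370, 316 and 276 counts in the saline group against 519, 499 and 354 in the CGRP group, and the log2 fold change was 0.60 (standard error 0.10, limma-voom adjusted p = 0.00105). In macrophages it had 1348, 850 and 1038 saline counts against 2184, 2339 and 1707 CGRP counts, and the log2 fold change was 1.26 (standard error 0.16, adjusted p = 8.39e-05). In CPM all CGRP libraries lay above all saline libraries of the same cell type. In neutrophils the call was lost in 1 fit over all 12 libraries (adjusted p = 0.063).

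*Slc15a4* (chr5:127595664-127632897, minus strand), a related endolysosomal transporter of histidine, fell in macrophages. It had 260, 247 and 171 saline counts against 111, 127 and 74 CGRP counts, and the log2 fold change was -0.83 (standard error 0.17, adjusted p = 0.00569). The groups did not overlap. In neutrophils its log2 fold change was -0.31 (adjusted p = 0.373), and the groups overlapped. The test of a difference between the cell types was not made for either transporter.

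Most storage and uptake genes were near the floor. *Slc18a1*, the other vesicular monoamine transporter, had 7, 12 and 6 counts in saline macrophages and 9, 11 and 3 with CGRP, and at most 3 counts in any neutrophil library. *Slc18a2*, which fills the histamine granules of basophils and mast cells, had 5, 4 and 3 counts in saline neutrophils and 2, 4 and 5 with CGRP, and 1 count in all 6 macrophage libraries together. *Slc22a3*, a plasma membrane carrier of histamine, had 2, 1 and 5 counts in saline neutrophils and 2, 0 and 0 with CGRP, and was at 0 in macrophages. *Slc22a2* was at 0 in every library, as was *Uroc1* of the histidine breakdown pathway, and *Aoc1* was at 0 in every neutrophil library, with 1 count in 1 saline macrophage library.

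*Aldh2*, an aldehyde dehydrogenase that acts after the oxidation of methylhistamine, had log2 fold changes of -0.14 in neutrophils (adjusted p = 0.529) and 0.32 in macrophages (adjusted p = 0.137). *Pdxk*, the pyridoxal kinase, did not pass the test in either cell type, at -0.09 (adjusted p = 0.885) in neutrophils and -0.54 (adjusted p = 0.0813) in macrophages. *Hal*, which diverts histidine to urocanate, was at 0.43 (adjusted p = 0.674) in neutrophils and 0.24 (adjusted p = 0.843) in macrophages.

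Between the resting cell types, 14 of the 29 further genes were tested, with 4 called higher in neutrophils and 6 in macrophages, beside 35.5% and 33.0% of all genes. Higher in neutrophils were *Aldh2* (log2 difference 1.15), the amino acid transporters *Slc7a5* (2.21) and *Slc38a5* (5.12, with 0 counts in every macrophage library, so that this fitted value depends on the prior count), and *Carns1*, the carnosine synthase (10, 22 and 20 counts against 5, 0 and 2 in macrophages, a log2 difference of 2.18 without saline macrophage replicate 2 and 3.91 without saline macrophage replicate 1). *Slc7a5*, *Slc38a5* and *Carns1* entered the fit through the neutrophil libraries alone and *Maoa* through the macrophage libraries alone, so their calls carry the filter's own direction. Their values are therefore given as a description, as for *Hdc* and *Hrh2*. The counts of 4 and 6 calls include these genes, so nothing is read from them beside the shares of all genes. Higher in macrophages were *Pdxk* (-3.71), the carnosine dipeptidase *Cndp2* (-2.47), the monoamine oxidase *Maoa* (-1.96), *Slc15a3* (-1.67), the transporter chain *Slc3a2* (-0.85) and *Slc15a4* (-0.62). Macrophages with saline held 335 ± 56.6 CPM of *Pdxk* against 25.3 ± 3.47 CPM in neutrophils (SD, n = 3 each).

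**Figure D3:**
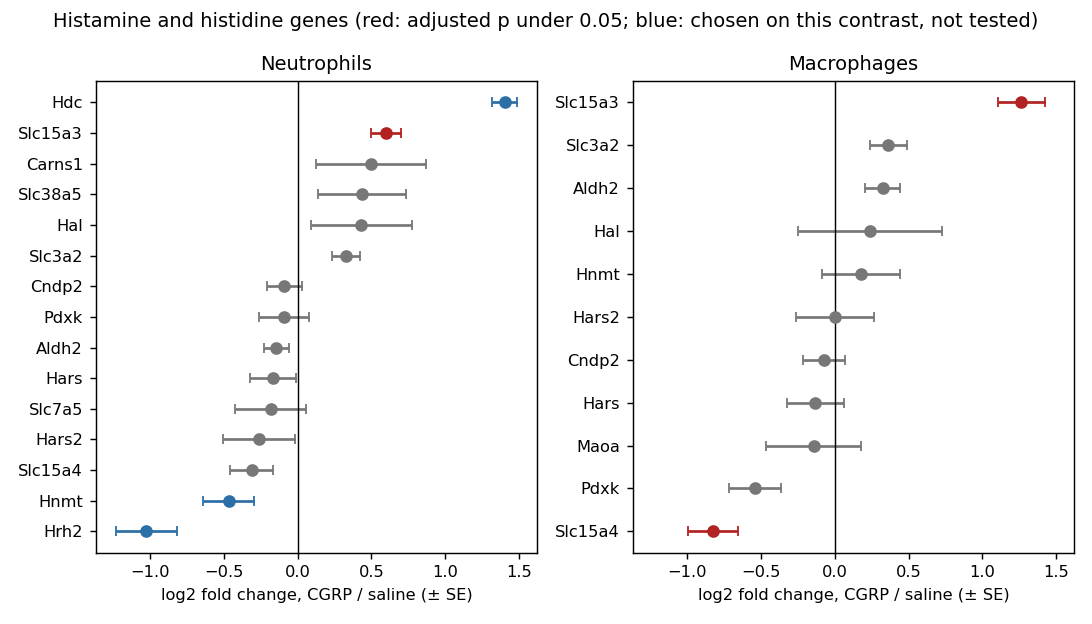
Log2 fold change (CGRP over saline, points) with its standard error (bars) for the histamine and histidine genes shown in neutrophils (left) and macrophages (right), n = 3 libraries per group. Red marks an adjusted p under 0.05 and blue the members in the comparison that chose them. *Hdc* and *Hrh2* bound the neutrophil panel at 1.40 and -1.03, and *Slc15a3* and *Slc15a4* bound the macrophage panel at 1.26 and -0.83.

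The labelled cell types were checked against marker genes. The summed level of 14 neutrophil markers, led by *S100a8*, was 165578 to 233374 CPM in saline neutrophils and 304.0 to 398.4 CPM in saline macrophages. That of 14 monocyte and macrophage markers was 3715 to 4362 CPM in saline neutrophils, led by the monocyte gene *Ly6c2*, and 12709 to 13176 CPM in saline macrophages, led by *C1qb*. Several neutrophil markers, *Ly6g* among them, entered the fit between cell types through the neutrophil libraries alone, so their calls there are not used. The neutrophil libraries also held markers of other cells: the 7 immature granulocyte markers (led by *Chil3*) and the 7 erythroid markers (led by *Hbb-bs*) were all detected there. With CGRP, limma-voom called 0 of 14 neutrophil, 7 immature granulocyte, 4 megakaryocyte and platelet, 5 lymphocyte, 4 dendritic cell and 7 erythroid genes tested in neutrophils (3, 2, 0, 1, 0 and 0 at an unadjusted p under 0.05, and 0 in each by edgeR and DESeq2). Among all genes tested, 1.51% were called higher and 1.02% lower, so 0 calls in such short lists lie near those shares. Log2 fold changes were below 0 for 10 of the 14 neutrophil genes (median -0.10) and for all 7 immature granulocyte genes (median -0.12). The summed lymphocyte level was 130.03 to 148.1 CPM with saline and 106.2 to 127.5 CPM with CGRP, without overlap, and the part of these shifts in the levels of the histamine genes was not tested. Of 13 monocyte and macrophage genes tested there, limma-voom called 0 higher and 1 lower, beside 1.51% and 1.02% of all genes. It was the chemokine receptor gene *Ccr2*, with a log2 fold change of -0.49 (limma-voom adjusted p = 0.00134). edgeR and DESeq2 also called 1 each, and 4 had an unadjusted p under 0.05 in limma-voom. Of the 13, 9 had log2 fold changes below 0 and 4 above. The groups of 4 did not overlap, all lower with CGRP, beside 9.69% of all genes.

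Basophils, eosinophils and mast cells bear most directly on *Hdc*, since basophils and mast cells are its classical sites. In the neutrophil libraries the basophil proteases *Mcpt8* and *Prss34* were abundant. *Mcpt8* had 1358, 1544 and 1042 counts in the saline group against 1296, 1215 and 866 in the CGRP group, and *Prss34*, the top gene of the list, had 2153, 2132 and 1554 saline counts against 2079, 1929 and 1517 CGRP counts. The eosinophil granule gene *Prg2* had 1722, 1985 and 1504 counts in the saline group against 1790, 1694 and 1354 in the CGRP group. Of the mast cell genes, *Mcpt4*, *Tpsab1* and *Mrgprb2* were at 0 in every neutrophil library, while *Cpa3*, which basophils also express, had 74, 78 and 39 saline counts against 74, 60 and 43 CGRP counts.

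No marker of these cells passed the test in neutrophils, where 1.51% of all genes were called higher and 1.02% lower. With so few markers tested, 0 calls lie near those shares. Of the 18 basophil and mast cell genes, 11 were tested in neutrophils and limma-voom called 0 (1 at an unadjusted p under 0.05, 0 by edgeR and 0 by DESeq2), with a median log2 fold change of -0.05, and the groups of 2 of them did not overlap, both lower with CGRP, beside 9.69% of all genes. The log2 fold changes were -0.13 for *Mcpt8*, 0.02 for *Prss34*, 0.00 for *Cpa3* and -0.83 for *Kit*, the stem cell factor receptor (adjusted p = 0.169). Their summed level had a median of 1192 CPM over the saline libraries (1021 to 1202) and 1116 CPM over the CGRP libraries (1006 to 1166), so the groups overlapped. Of the 8 eosinophil genes, 6 were tested and limma-voom called 0 (0 at an unadjusted p under 0.05, 0 by edgeR and 0 by DESeq2), with all 6 log2 fold changes below 0 (median -0.10) and overlapping sums of 629.6 to 705.8 CPM with saline and 577.4 to 673.7 CPM with CGRP.

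Set against these markers within a library, *Hdc* was again higher with CGRP. There were 0.872, 0.795 and 0.872 *Hdc* counts for each *Mcpt8* count in the saline libraries against 2.41, 2.69 and 2.25 in the CGRP libraries. For each *Prss34* count the saline libraries had 0.55, 0.576 and 0.585 and the CGRP libraries 1.5, 1.69 and 1.28. For each count of *Ly6g*, the neutrophil surface marker, they had 0.437, 0.364 and 0.463 against 1.3, 1.61 and 1.58, and *Ly6g* itself stood at -0.42 on the log2 scale (adjusted p = 0.0663), which enlarges this ratio. Each of these ratios separated the groups without overlap; the ratios share the *Hdc* counts and so describe the same change. Which cells of the enriched population carried the *Hdc* transcripts was not tested.

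**Figure D4:**
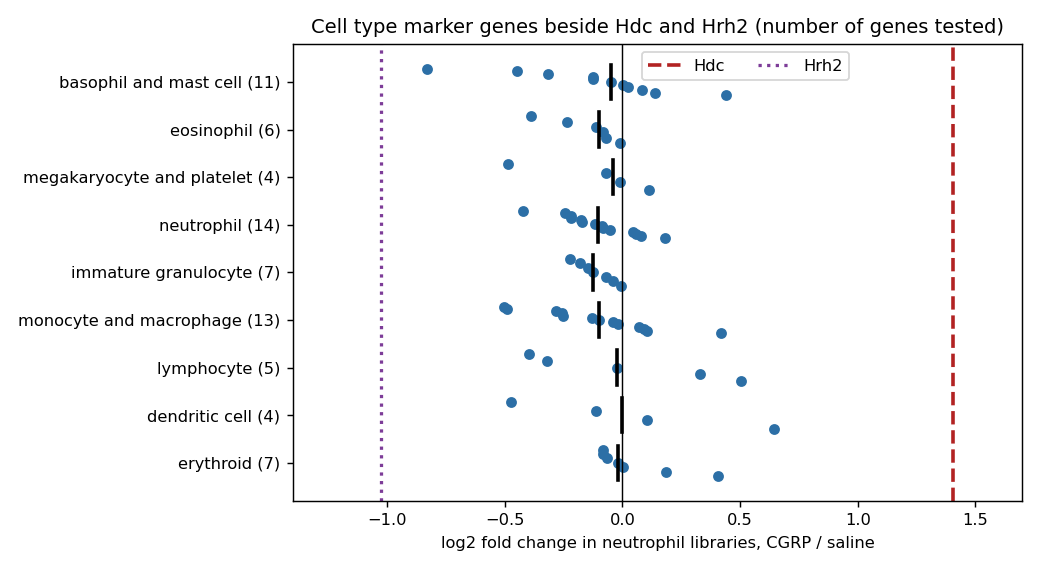
Log2 fold change in neutrophil libraries (CGRP over saline, horizontal axis) of each tested marker gene (points), grouped by the cell type it marks, with the number tested in brackets and the group's median as a black bar. The dashed line marks *Hdc* (1.40) and the dotted line *Hrh2* (-1.03), and every marker point lies between them.

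The few *Hdc* counts in macrophage libraries came with traces of neutrophil genes. The summed level of the 14 neutrophil markers there was 340.1, 398.4 and 304.0 CPM in the saline group against 451.9, 424.1 and 404.6 CPM in the CGRP group, led by *S100a8*, so that these groups, like those of *Hdc*, did not overlap and were higher with CGRP. All 8 of these markers that were tested in macrophages had log2 fold changes above 0, and limma-voom called 0 (2 at an unadjusted p under 0.05, 0 by edgeR and 0 by DESeq2). Among all genes tested in macrophages, 3.46% were called higher and 3.97% lower. The summed level of the 14 monocyte and macrophage markers was likewise higher with CGRP without overlap. It was 12709 to 13176 CPM with saline and 13512 to 14573 CPM with CGRP. Of these 14 genes, 13 had log2 fold changes above 0 and 1, *Ccr2*, below (-0.81). The median log2 fold change was 0.21 for these 14 and 0.38 for the 8 neutrophil markers. For each count of *Ngp*, a neutrophil granule gene, there were 0.0127, 0.0211 and 0.0417 *Hdc* counts in saline macrophages and 0.0483, 0.0426 and 0.0631 with CGRP, against 0.00744, 0.00629 and 0.00764 in saline neutrophils and 0.0187, 0.0218 and 0.0194 with CGRP. *Mcpt8* had 17, 19 and 9 counts in saline macrophages and 15, 10 and 9 with CGRP. Of the basophil and mast cell list, 4 genes were tested in macrophages and 2 were called, both lower with CGRP (3.97% of all genes were): *Hpgds* (log2 fold change -0.92) and *Mitf* (-1.22), which macrophages also express. The part of neutrophil, basophil and mast cell transcripts in the *Hdc* counts of macrophages was not tested.

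The genes whose level followed *Hdc* most closely were ranked by Pearson correlation of log2 CPM, as a description. Over the 6 neutrophil libraries, among 7211 genes with a mean of at least 10 CPM, they were *Lmnb1* (nuclear lamin B1, r = 0.999), *Lilr4b* (a leukocyte receptor, 0.997), *Tgm2* (tissue transglutaminase, 0.997), *Tmed5* (a cargo protein of the early secretory pathway, 0.995) and *Il1r2* (the decoy receptor for interleukin-1, 0.995). All 5 were higher with CGRP, by log2 fold changes of 1.20, 0.62, 1.48, 0.93 and 1.67 in that order, and the 6 points fall into the saline and CGRP clusters that chose *Hdc*. *Lilr4b* shared 34.4% of its 31-base words with other transcripts, mainly *Lilrb4a*, but 0.851% of those in its last 500 bases.

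Over all 12 libraries, only genes tested in both cell types were ranked. Genes too low in macrophages for the fit, as *Hdc* itself was, were therefore left out. Among the ranked genes, the leading ones followed the contrast between cell types more than CGRP. They were *Nedd9* (a scaffold protein, r = 0.993), *Ifitm1* (an interferon-induced membrane protein, 0.993), *Mxd1* (a partner of Max, 0.993), *Grina* (0.992) and *Gda* (guanine deaminase, 0.992). Their log2 fold changes with CGRP in neutrophils were between 0.18 (*Gda*) and 0.56 (*Grina*), below the 1.40 of *Hdc*. *Mxd1* was at 620 CPM in saline neutrophils and 6.74 CPM in saline macrophages. *Ifitm1* shared 26.6% of the 31-base words in its last 500 bases with other transcripts.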

How the data were processed

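RNA from 12 libraries (20 ng each, RNA integrity number of at least 7) was made into 3′-primed cDNA with 10-base molecular identifiers. Per the labels and the study's methods, the authors ran nfCore/RNAseq with its identifier option, aligned to GRCm38 with STAR and deposited raw counts per gene from featureCounts, unfiltered and not normalized. The annotation release and strand setting are not given in the sources used here.

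Counts were tested with limma-voom (limma 3.58.1, R 4.3.3) after edgeR (4.0.16) filterByExpr and TMM scaling, with Benjamini-Hochberg adjustment over all genes, two-sided, at 0.05. The 3 fits were CGRP against saline in neutrophils (9819 genes, 248 called), the same in macrophages (9393, 698 called), and saline neutrophils against saline macrophages (10186, 6975 called). Genes under the filter were compared by pooled counts with exact 95% intervals and exact permutation tests. The script was tested on simulated data. Alternatives were edgeR quasi-likelihood, DESeq2 (1.42.0), other scalings and filters, quality weights, one joint fit, a replicate block and leaving out each library.

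Named genes were the 4 members, other listed genes that passed a test, receptors and transporters whose counts decide a statement, the 5 genes most like *Hdc*, each marker list's top gene and its members at 0, and genes overlapping a member; *Aldh2*, *Pdxk*, *Hal* and *Odc1* under CGRP, the other marker genes given and the *Hdc* ratios were named after their values were seen. Some listed genes are not reported here by name. The members and lists were chosen with earlier results of these data known. Of the gene identifiers, 52403 of 52636 were found in the GENCODE annotation of GRCm38, and RefSeq promoter entries held all 4 members.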

Additional observations from a re-analysis of the deposited data

Results flagged for a closer look

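*Azin1*, the antizyme inhibitor that frees ornithine decarboxylase, had log2 fold changes of opposite sign in the 2 cell types. In neutrophils it had 355, 433 and 339 saline counts against 521, 533 and 359 CGRP counts, for a log2 fold change of 0.41 (limma-voom adjusted p = 0.0173), and in CPM all CGRP libraries lay above all saline libraries, as they did for 8.18% of all genes tested. The call was lost in one fit over all 12 libraries (adjusted p = 0.0932), without saline replicate 1 (0.150) and without CGRP replicate 1 (0.0542). In macrophages it had 422, 417 and 286 saline counts against 289, 236 and 180 CGRP counts, for a log2 fold change of -0.37 that was not called (adjusted p = 0.130), and in CPM all CGRP libraries lay below all saline libraries, as they did for 13.2% of genes. The log2 fold changes differed by 0.785, and this difference was not tested.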

How the results depend on the processing

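*Hdc* kept a log2 fold change of 1.39 to 1.46 in neutrophils over 9 alternative fits and 1.34 to 1.47 with each library left out. *Hrh2* (-1.04 to -0.98, and -1.15 to -0.90) and *Hnmt* (-0.48 to -0.41, and -0.63 to -0.29) kept their direction. *Hnmt* stayed uncalled in macrophages and called between resting cells in all these fits, but its macrophage value of 0.18 moved by over 1.5 times without any single library but CGRP replicate 2, from 0.04 without saline replicate 3 to 0.39 without saline replicate 2. In neutrophils the 248 calls became 137 in one fit over all 12 libraries (84 of 148 higher, 53 of 100 lower). The 100 lower calls became 64 with library totals in place of TMM and 152 with no filter. With single libraries left out, calls ran from 138 to 234 (79 to 146 higher, 53 to 97 lower), moving by over 1.5 times without saline replicate 1, saline replicate 2 or CGRP replicate 2. In macrophages the 698 calls became 1406 with quality weights (715 higher, 691 lower) and 1050 in the joint fit (569 lower). They ran from 347 to 765 (163 to 420 higher, 173 to 392 lower) with libraries left out, moving most without saline replicate 1, CGRP replicate 2 or CGRP replicate 3. The 2 histamine genes called in macrophages became 4 with no filter, 5 with quality weights and 4 in the joint fit, and ran from 2 to 3 with libraries left out. The 13 called between resting cells, a count that includes *Hdc* and *Hrh2*, became 7 when at least 10 counts were asked of every library, which removes genes near 0 in one cell type. The causes of the other shifts were not tested.

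In neutrophils the deviations of samples with the same number had correlations of -0.013 to 0.137, beside -0.136 to 0.108 for different numbers. In macrophages these were -0.179 to 0.273 and -0.402 to 0.385. In each cell type 3 of 6 samples were closest to their own number. Whether samples with the same number share an origin was not tested. With a replicate block the calls were 289, 1007 and 7291 in neutrophils, macrophages and between resting cells, and *Hdc* stood at 1.40 in neutrophils. *Hrh1*, *Hrh3*, *Hrh4* and macrophage *Hdc* and *Hrh2* had too few counts for the main fit under CGRP. Whether greater depth would change this was not tested. The counting interval of macrophage *Hdc* (1.16 to 6.67) excluded a ratio of 1, but the test over libraries could not go below an exact p of 0.1.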

Other observations

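Genes of polyamine metabolism and the other amino acid decarboxylases were read in the same libraries. *Smox*, spermine oxidase, rose by 0.54 on the log2 scale in neutrophils (102, 114 and 90 counts with saline, 140, 179 and 103 with CGRP, limma-voom adjusted p = 0.0361) and by 1.14 in macrophages (adjusted p = 0.000367). The neutrophil call was lost in 3 alternative fits and without any of 4 single libraries, all 3 saline replicates and CGRP replicate 2 (adjusted p up to 0.201).

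*Sms*, spermine synthase, fell by 1.05 on the log2 scale in macrophages (147, 137 and 86 counts with saline, 66, 47 and 32 with CGRP, adjusted p = 0.00476). *Odc1*, ornithine decarboxylase, did not pass the test, at 1.14 in neutrophils (adjusted p = 0.138) and 1.06 in macrophages (adjusted p = 0.0971). The decarboxylase genes *Gad1* and *Gad2* and the hydroxylase genes *Tph1* and *Th* were at 0 in all 12 libraries.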
